A study of Homo sapiens with 4 samples.

Results

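Small nucleolar RNAs (snoRNAs) were described in BJ cells, an established line of human skin fibroblasts. They were chosen by their level: 51 gene entries whose symbol begins with SNORA or SNORD and a digit had a mean expected count of at least 100 over the 4 libraries. These were 51 of 433 snoRNA entries and of 58870 genes in each table. Of the 51, 11 were box C/D snoRNAs (SNORD) and 40 were box H/ACA snoRNAs (SNORA). The mean count that selected them is given as a description only. Total RNA was taken with TRIzol, in 2 libraries per group. Cells were exposed for 24 hours to DMSO, the vehicle, or to 250 nM Dox, and then left for 10 days. The labels do not expand the abbreviation Dox. The sample titles call the DMSO libraries YOUNG CONTROL and the Dox libraries AGEDDox. The order of exposure and 10 days is the series design's, and the wording of the treatment protocol can be read the other way round. The labels do not say whether the libraries of a group came from separate cultures, so a p-value here reflects no more than how far these libraries differ, which may be technical. In bulk RNA, fewer cells carrying an RNA and less of that RNA per cell cannot be told apart.

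As background, snoRNAs are short RNAs of the nucleolus, most of which are released from the introns of host genes after splicing. Box C/D snoRNAs carry a C box and a D box, bind fibrillarin, NOP56, NOP58 and SNU13, and guide methylation of the ribose of rRNA and snRNA. Box H/ACA snoRNAs end in an ACA box, bind dyskerin, NHP2, NOP10 and GAR1, and guide the change of uridine to pseudouridine. A few act in cutting the precursor of rRNA instead, among them U3 (the SNORD3 genes), which is transcribed from its own promoter.

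The sequences that the results below turn on were taken from GENCODE 29 (GRCh38, 1-based coordinates) and are written 5′ to 3′. They are the U3 RNA SNORD3A at chr17:19188016-19188232 (plus strand) and its copy SNORD3B-1 at chr17:19061912-19062128 (plus strand), shown because 1 base parts them. SNORD17 at chr20:17962710-17962946 (minus strand) was the box C/D RNA lower in both Dox libraries. SNORA73B at chr1:28508559-28508762 (plus strand), SNORA63 at chr3:186787300-186787431 (plus strand) and SNORA53 at chr12:98599635-98599883 (plus strand) are abundant box H/ACA RNAs. The copies SNORA80A at chr21:32377187-32377322 (minus strand) and SNORA80B at chr2:10446714-10446849 (minus strand) were the box H/ACA RNAs higher in both Dox libraries. SNORD33 at chr19:49490615-49490699 (plus strand) stands for the short box C/D RNAs that fell below the level chosen. Capitals mark the C box letters TGATGA and the D box letters CTGA in box C/D RNAs, and ACA near the end in box H/ACA RNAs.
SNORD3A: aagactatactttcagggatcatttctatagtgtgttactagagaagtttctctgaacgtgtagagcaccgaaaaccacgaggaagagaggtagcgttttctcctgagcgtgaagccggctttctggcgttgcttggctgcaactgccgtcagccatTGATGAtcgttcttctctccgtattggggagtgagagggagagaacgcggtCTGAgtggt
SNORD3B-1: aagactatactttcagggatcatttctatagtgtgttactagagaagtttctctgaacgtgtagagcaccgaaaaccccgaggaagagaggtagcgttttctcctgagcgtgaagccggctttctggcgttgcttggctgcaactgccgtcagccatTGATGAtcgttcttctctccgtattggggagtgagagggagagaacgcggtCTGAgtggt
SNORD17: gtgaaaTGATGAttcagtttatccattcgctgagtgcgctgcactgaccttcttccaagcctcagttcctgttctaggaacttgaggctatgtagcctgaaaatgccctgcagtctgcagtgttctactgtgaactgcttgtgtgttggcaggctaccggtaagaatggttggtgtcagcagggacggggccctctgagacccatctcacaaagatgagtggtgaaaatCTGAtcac
SNORA73B: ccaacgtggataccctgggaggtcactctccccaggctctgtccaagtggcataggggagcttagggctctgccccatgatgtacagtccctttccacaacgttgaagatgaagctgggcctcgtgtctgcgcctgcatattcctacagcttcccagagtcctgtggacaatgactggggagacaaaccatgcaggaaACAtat
SNORA63: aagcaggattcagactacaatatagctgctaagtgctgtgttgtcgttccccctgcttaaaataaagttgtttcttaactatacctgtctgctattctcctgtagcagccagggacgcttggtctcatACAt
SNORA53: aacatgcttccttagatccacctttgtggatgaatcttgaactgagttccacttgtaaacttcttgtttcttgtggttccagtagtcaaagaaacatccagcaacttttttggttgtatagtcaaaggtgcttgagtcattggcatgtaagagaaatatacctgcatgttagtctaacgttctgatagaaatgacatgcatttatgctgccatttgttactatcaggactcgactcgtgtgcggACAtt
SNORA80A: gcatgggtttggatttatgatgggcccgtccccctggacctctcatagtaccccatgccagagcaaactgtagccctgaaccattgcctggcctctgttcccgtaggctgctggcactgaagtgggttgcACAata
SNORA80B: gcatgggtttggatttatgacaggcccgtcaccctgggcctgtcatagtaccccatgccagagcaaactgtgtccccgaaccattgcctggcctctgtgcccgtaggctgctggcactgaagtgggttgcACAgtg
SNORD33: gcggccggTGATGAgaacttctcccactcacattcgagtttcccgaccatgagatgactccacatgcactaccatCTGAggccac

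The motifs were searched on the RNA strand alone, with TGATGA anywhere and CTGA or ACA in the last 10 bases, and matches were allowed to overlap. TGATGA was present in 8 of the 11 box C/D snoRNAs and CTGA in 10 of 11. ACA was present in 39 of the 40 box H/ACA snoRNAs and in 0 of the 11 box C/D snoRNAs. Among 3460 other small RNA transcripts of 100 to 300 bases in GENCODE 29 the same letters were found in 4.45%, 1.47% and 6.99%. A match is a description of the letters and not a site. SNORD3A and SNORD3B-1 had 216 of 217 bases the same and differed by A78C, counted from the 5′ end with SNORD3A first. SNORD3B-2 differed from SNORD3A by the same A78C and SNORD3C by G108A. SNORA80A and SNORA80B shared 125 of 136 bases, and SNORA7A and SNORA7B 137 of 139. Reads can be divided between such copies in more than one way, so the values of single copies are uncertain.

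Library totals ran from 42744729 to 47798920 expected counts. A chi-square was taken over all genes with enough counts in a pair, whether or not they were tested. The DMSO libraries differed by 2.40 per degree of freedom and the Dox libraries by 60.5, so the Dox pair stood much further apart. The value includes the snoRNAs themselves, and abundant RNAs weigh more in it. Fibroblast markers summed to between 28952 and 29371 CPM (TMM-scaled counts scaled to a common library size) in DMSO and between 21983 and 27033 in Dox, with 0 of 8 at 0 in all libraries. Leukocyte markers summed to between 5.82 and 6.26 CPM in DMSO and between 26.0 and 28.0 in Dox, and 1 of 4, CD3E, was at 0 throughout. Endothelial, keratinocyte and melanocyte markers each summed to at most 0.551 CPM in any library, and 1 of 9, KRT5, was at 0 throughout. The leukocyte sum was alike in both Dox libraries, in which the snoRNAs below were not, and its part in the snoRNA values was not tested.

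Which snoRNAs reached the level chosen went with their length. Of the 283 box C/D entries, 249 were of 100 bases or less, 171 of these were at 0 in every library and 0 were among the 51. Their summed counts were 302 and 343 in the DMSO libraries and 467 and 194 in the Dox libraries. The highest of them by mean count was SNORD33, a methylation guide of 85 bases named after its values were seen, with counts of 49, 54, 64 and 24 in DMSO 1, DMSO 2, Dox 1 and Dox 2, the order used for all values below. Of 140 box H/ACA entries of 121 to 160 bases, 33 were among the 51, as were 5 of the 7 box C/D entries of that length. The 51 snoRNAs were from 104 to 281 bases long. In every library 258 of 283 box C/D entries and 1 of 150 box H/ACA entries carried an effective length of 0, the estimate of how many start positions a fragment can take on an RNA. The longest such entries had 104 bases. Among them was SNORD13, listed at 0 TPM and 0 FPKM in all libraries beside counts of 458, 498, 779 and 247. The part of fragment length in the low counts of short box C/D RNAs was not tested.

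**Figure D1:**
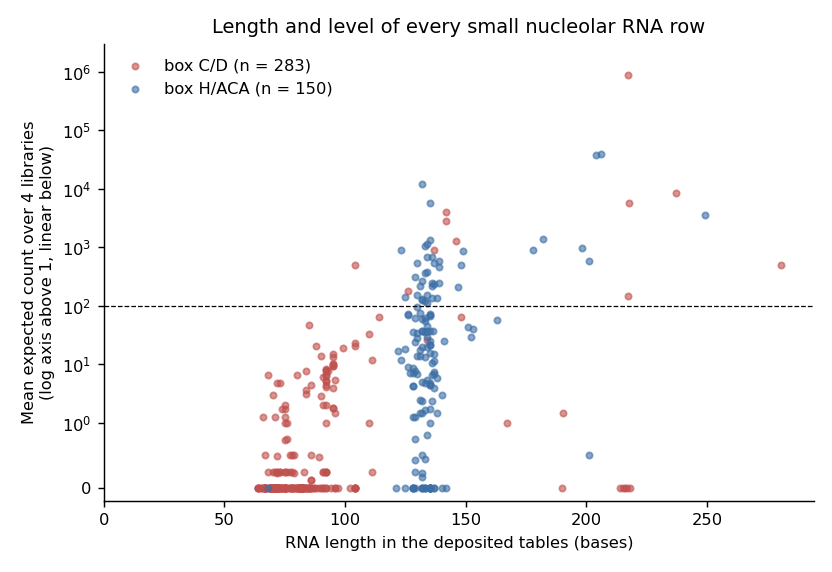
Each point is 1 of the 433 snoRNA entries, with its length in bases on the horizontal axis and its mean expected count over the 4 libraries on the vertical axis, which is logarithmic above 1. The dashed line marks a mean count of 100, and none of the 249 box C/D entries of 100 bases or less lies above it.

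At the edge of the rule, SNORA21, SNORA10 and SNORA22 lay just above a mean count of 100 and SNORA61, SNORA38B and SNORA40 just below it. SNORA22, the lowest of the 51, had a mean count of 95.9 in DMSO and 123 in Dox and was the only one of the 51 with a group mean under 100. All 51 passed the filter on low counts, beside 56 snoRNAs under the level. Among the 433 entries, 209 were at 0 in every library and 173 were above 0 and under the level.

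Per kilobase of the RNA length given, SNORD3A had by far the highest level, at 91915 CPM per kilobase as a mean over the 4 libraries. SNORA73A and SNORA73B, the U17 RNAs that also act in cutting pre-rRNA, followed at 4312 and 4215 CPM per kilobase. SNORA63 had 2078, SNORA48 970.3, SNORD17 819, SNORD10 650.5, SNORD3B-2 607, SNORD97 447 and SNORA53 331 CPM per kilobase. The median of the 51 was 89.3 and the lowest was SNORD3C, another U3 copy, at 15.5. The effective length, not used for these values, ran from 44.45 to 47.95 bases for SNORD3A and from 4.42 to 4.98 for SNORA63. An order by effective length was not examined and could differ. SNORD3A alone held between 97.0% and 97.7% of the counts of the 11 box C/D snoRNAs. SNORA73A and SNORA73B held between 65.3% and 68.4% of the counts of the 40 box H/ACA snoRNAs.

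The 51 snoRNAs together took 2.15% and 2.13% of all expected counts in the DMSO libraries, 3.15% in Dox 1 and 1.82% in Dox 2. The Dox libraries thus lay on either side of the DMSO libraries. Box C/D snoRNAs took 1.91%, 1.88%, 2.75% and 1.65% of counts. Box H/ACA snoRNAs took 0.237%, 0.249%, 0.396% and 0.164%. Counting error is small at this depth: the Wilson 95% interval of the box H/ACA share in Dox 2 ran from 0.163% to 0.165%, for counting error only.

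The ratio of box H/ACA to box C/D counts was 0.124 and 0.133 in DMSO, 0.144 in Dox 1 and 0.0991 in Dox 2. The DMSO values lay between the Dox values, so the groups overlapped. The mean difference of the log2 ratio, Dox minus DMSO, was -0.10, against a spread between replicates of 0.274 (SD of the log2 ratio, pooled over both groups of 2). Its sign followed the library and the members used. It was 0.17 without Dox 2, -0.37 without Dox 1 and 0.14 without the most abundant snoRNA of each class. With those set aside the ratio itself was 2.89, 2.84, 3.55 and 2.81. The median log2 CPM of the box H/ACA snoRNAs minus that of the box C/D snoRNAs was -1.02, -1.21, -1.92 and -1.21, a Dox minus DMSO difference of -0.45.

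**Figure D2:**
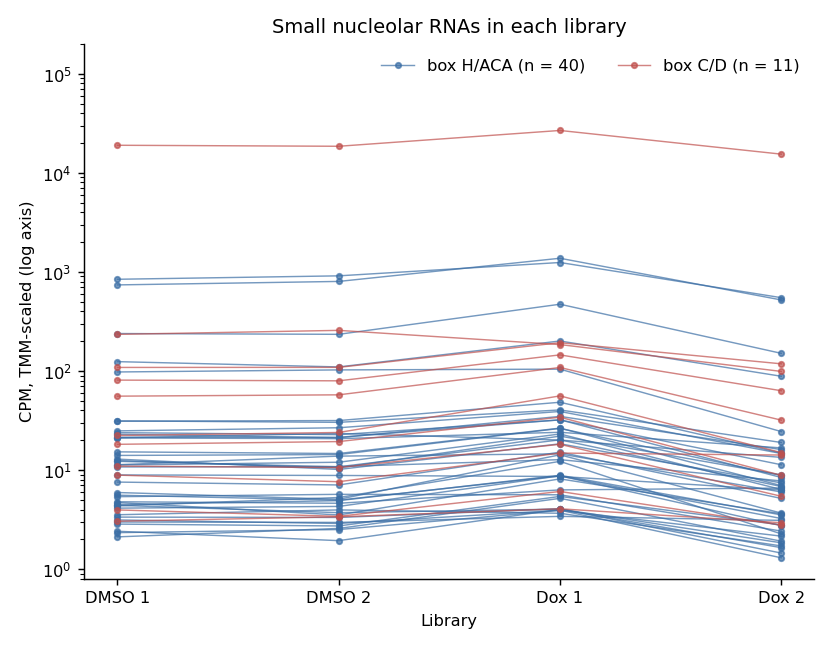
Each line joins the TMM-scaled CPM (logarithmic axis) of 1 snoRNA across the libraries DMSO 1, DMSO 2, Dox 1 and Dox 2, red for 11 box C/D and blue for 40 box H/ACA snoRNAs. Most lines are level over the DMSO libraries, rise at Dox 1 and drop at Dox 2, and the topmost line is SNORD3A, between 15459 and 26805 CPM.

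Of the 51 snoRNAs, 2 rose and 0 fell in Dox against DMSO in edgeR's quasi-likelihood test (Benjamini-Hochberg adjusted over 16749 genes, threshold 0.05), while 30.3% of all genes tested were called, 16.5% higher and 13.8% lower. The share called among the 51 was 3.92%. At an unadjusted p under 0.05 there were 4, beside 42.6% of all genes tested, and DESeq2 called 1 higher and 0 lower. By class, 1 of 11 box C/D and 1 of 40 box H/ACA snoRNAs were called. The median log2 fold change was 0.19 over the 51, 0.26 over the box C/D and 0.17 over the box H/ACA snoRNAs, and -0.0023 over all genes tested. The standard error of the log2 fold change had a median of 0.38 over the 51 and 0.13 over all genes tested.

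The few calls stood beside a large gap between the Dox libraries. In 39 of the 51 snoRNAs Dox 1 lay above both DMSO libraries and Dox 2 below both, an arrangement found in 6.11% of all genes tested. This held for 8 of 11 box C/D and 31 of 40 box H/ACA snoRNAs. The CPM in Dox 1 was a median 2.47-fold that in Dox 2 over the 51, from 0.958-fold for SNORA80A to 5.40-fold for SNORA38. SNORA38 was named after its values were seen. Dox 1 was higher in 50 of 51 and more than 1.5-fold higher in 44, or 86.3%, against 4.85% of all genes tested. The DMSO libraries differed by a median of 1.01-fold over the 51, from 0.819 to 1.34. Over all genes tested the median of Dox 1 over Dox 2 was 0.996-fold, with 5th and 95th percentiles of 0.663 and 1.49. The cause of the gap between the Dox libraries was not tested.

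Across the 51 the gap was much the same for short and long RNAs and for both classes. As descriptions over 51 RNAs of the same libraries, Spearman's rho of the log2 ratio of Dox 1 to Dox 2 was -0.07 with length, 0.14 with mean CPM and -0.35 with GC content, and Pearson's r was -0.16, 0.04 and -0.35. The 39 snoRNAs under 160 bases had a median ratio of 2.47 and the 12 longer ones 2.44. The medians of the classes were 2.19 for box C/D and 2.50 for box H/ACA.

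**Figure D3:**
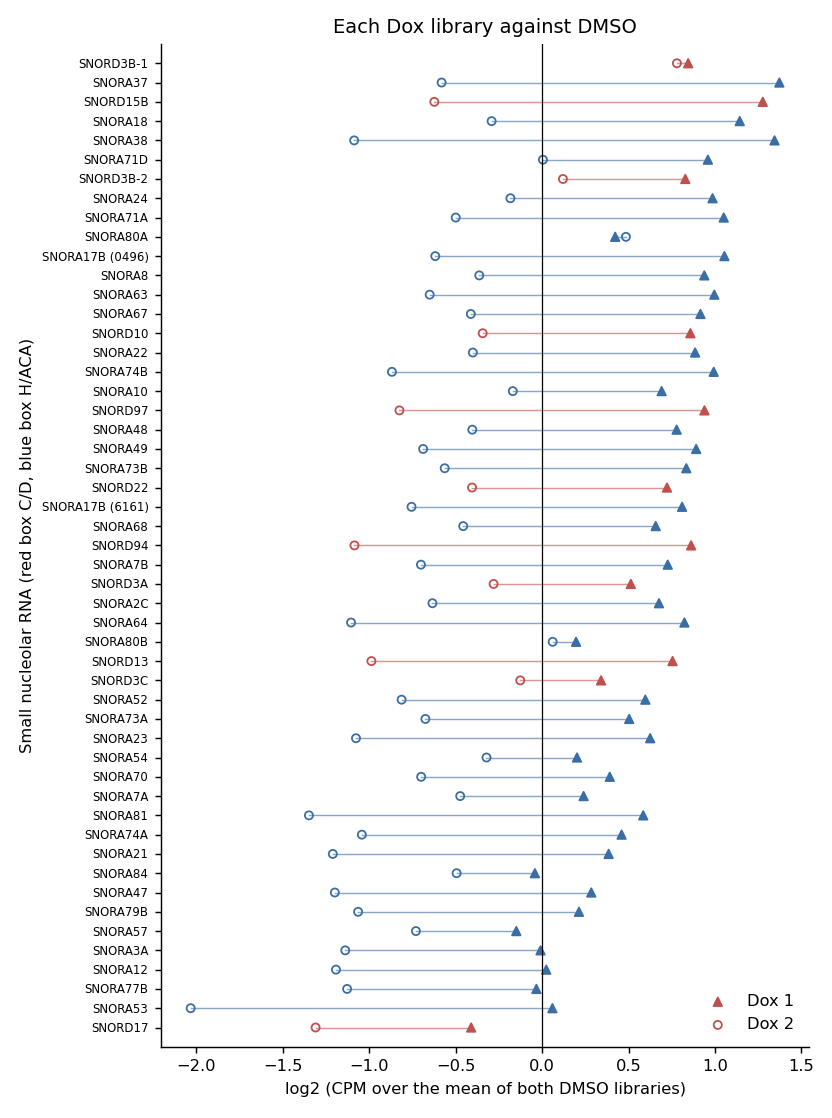
For each of the 51 snoRNAs the horizontal axis gives the log2 ratio of its CPM in Dox 1 (triangles) and in Dox 2 (open circles) to the mean of both DMSO libraries, red for box C/D and blue for box H/ACA, sorted by fitted fold change with the largest on top (the last digits of the identifier tell the 2 SNORA17B entries apart). Zero lies between triangle and circle for most, whereas both marks lie to its right for SNORD3B-1 and SNORA80A and to its left for SNORD17.

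Leaving out 1 Dox library turned the direction. Without Dox 1, 41 of the 51 snoRNAs were called lower and 3 higher (26.7% and 26.0% of all genes tested), with a median log2 fold change of -0.64. Without Dox 2, 41 were called higher and 2 lower (27.0% and 29.1% of all genes tested), with a median of 0.73. In these fits the single Dox library is assumed to vary as little as the DMSO pair, which the full data do not bear out. The 3 called higher without Dox 1 were SNORD3B-1, SNORD3B-2 and SNORA80A. The 2 called lower without Dox 2 were SNORD17 and SNORA57, the latter named after its values were seen.

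Among the RNAs that act in cutting pre-rRNA, U3 carried most of the counts. SNORD3A measured 19001 and 18561 CPM in DMSO, 26805 in Dox 1 and 15459 in Dox 2. Dox 1 was above and Dox 2 below both DMSO libraries, and the log2 fold change of 0.17 (SE 0.23) had an adjusted p of 0.608 in edgeR. The 10 SNORD3 entries, 6 of them at 0 in every library, summed to 19122, 18681, 27017 and 15595 CPM, the same arrangement. SNORD3B-2 measured 109, 109, 193 and 118 CPM, higher in both Dox libraries, with a log2 fold change of 0.52 (SE 0.21) and an edgeR adjusted p of 0.113. It was called with no filter on low counts, at an edgeR adjusted p of 0.000976, and its log2 fold change was 0.11 without Dox 1 and 0.83 without Dox 2. SNORD3C measured 3.05, 3.38, 4.07 and 2.94 CPM, with Dox on both sides of DMSO.

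SNORD3B-1 was the box C/D entry called higher. It and SNORD3B-2, which was not called, differ from SNORD3A by the same A78C. How U3 reads divide between these 2 copies is therefore uncertain, and so are the values of SNORD3B-1 alone. SNORD3B-1 measured 8.90 and 7.64 CPM in DMSO and 14.9 and 14.2 in Dox, so both Dox libraries were above both DMSO libraries and close to each other. Its log2 fold change was 0.81 (SE 0.11), with an edgeR adjusted p of 0.0035. The mean transcript length given for SNORD3B-1 was 280, 346, 256 and 240.2 bases, beside 217 for SNORD3A in each library, so its counts include reads assigned to a longer transcript of the same gene. Whether the difference lies in the U3 RNA or in the longer transcript was not tested.

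SNORA73A and SNORA73B lie in the host genes RCC1 and SNHG3. SNORA73A measured 844 and 914 CPM in DMSO and 1246 and 550.2 in Dox, with a log2 fold change of 0.03 (SE 0.34) and an edgeR adjusted p of 0.953. SNORA73B measured 740.2, 802, 1375 and 522 CPM, with 0.30 (SE 0.39) and an edgeR adjusted p of 0.602. Both had the Dox libraries on either side of DMSO. SNORA63, another RNA of pre-rRNA processing, measured 239, 235, 472 and 151 CPM, with 0.40 (SE 0.46) and an edgeR adjusted p of 0.550. SNORD13, which guides acetylation of small-subunit rRNA and lies on chromosome 8, measured 10.97, 10.6, 18.2 and 5.44 CPM, with 0.13 (SE 0.48) and an edgeR adjusted p of 0.863. These RNAs thus shared the arrangement of SNORD3A.

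The other processing RNAs were under the level chosen. SNORD118, or U8, which acts in making large-subunit rRNA, had counts of 18, 31, 44 and 9. SNORA62 had counts of 37, 23, 85 and 13. Both were highest in Dox 1 and lowest in Dox 2. Of the SNORD14 copies, SNORD14A had counts of 5, 7, 6 and 6, with no gap between the Dox libraries. SNORD14B had counts of 15, 15, 23 and 3 and SNORD14C of 12, 20, 32 and 19, while SNORD14D and SNORD14E were at 0 in every library.

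Among the box C/D modification guides, SNORD17 stood apart. It measured 235 and 257 CPM in DMSO and 185 and 99.1 in Dox, so both Dox libraries were below both DMSO libraries. Its log2 fold change of -0.79 (SE 0.26) had an edgeR adjusted p of 0.0659 and did not pass, although it passed without DMSO 1 at an edgeR adjusted p of 0.0158 and with no filter on low counts at 5.3e-07. Its log2 fold change was -1.32 without Dox 1 and -0.41 without Dox 2. SNORD10 measured 81.0, 79.7, 146 and 63.3 CPM. SNORD97, which with SCARNA97 guides methylation of a methionine tRNA, measured 55.8, 57.5, 109 and 32.0 CPM. SNORD10 and SNORD97 had Dox on either side of DMSO, with log2 fold changes of 0.38 (SE 0.34) and 0.31 (SE 0.49).

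Among the box H/ACA guides, SNORA80A was the one that rose. It measured 4.79 and 4.63 CPM in DMSO and 6.31 and 6.59 in Dox, from counts of 200, 217, 270 and 299. Here Dox 2 was the higher of the Dox libraries. Its log2 fold change was 0.45 (SE 0.12), with an edgeR adjusted p of 0.0365. The call was lost with DESeq2, at an adjusted p of 0.178, with no filter on low counts, at 0.0502, and without DMSO 1 or DMSO 2, at edgeR adjusted p-values of 0.250 and 0.320. Its copy SNORA80B, named after its values were seen, measured 3.00, 2.96, 3.41 and 3.11 CPM, with a log2 fold change of 0.13 (SE 0.15) and an edgeR adjusted p of 0.553.

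SNORA53 had the lowest Dox 2 value relative to DMSO of the 51. It measured 97.9 and 103 CPM in DMSO, 104 in Dox 1 and 24.5 in Dox 2, so that Dox 1 was at the level of DMSO. Its log2 fold change was -0.64 (SE 0.57), with an edgeR adjusted p of 0.433, and it was called lower with no filter on low counts, at an edgeR adjusted p of 0.0176. The log2 fold change was -2.05 without Dox 1 and 0.057 without Dox 2. SNORA48 measured 124, 110.0, 201 and 88.6 CPM, with 0.30 (SE 0.34) and an edgeR adjusted p of 0.534. At the edge of the rule, SNORA21, SNORA10 and SNORA22 measured between 1.30 and 4.02 CPM in all libraries, and each was highest in Dox 1 and lowest in Dox 2.

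The groups did not overlap in 7 of the 51 snoRNAs, against 69.1% of all genes tested. Of these 7, Dox was above DMSO in 4, SNORD3B-1, SNORD3B-2, SNORA80A and SNORA80B (34.6% of all genes tested). Dox was below DMSO in SNORD17, SNORA57 and SNORA84 (34.5% of all genes tested), of which SNORA84 was also named after its values were seen. In 5 of the 51 a Dox library lay between the DMSO libraries.

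Host genes did not show the gap between the Dox libraries. An annotated host on the same strand was found for 46 of the 51 snoRNAs, in 38 genes, and for none of the 4 SNORD3 genes or SNORD13. Where a snoRNA had several such hosts, the shortest protein-coding one was used, or the shortest if none was protein-coding. All host values and calls rest on that host alone. The median ratio of Dox 1 to Dox 2 was 1.01 over the 38 hosts, from 0.782 to 1.63, beside 2.47 over the snoRNAs. For SNORA48, SNORD10 and SNORA67 in EIF4A1, a helicase of translation initiation, the ratios were 2.27, 2.30 and 2.51, and that of EIF4A1 was 0.896. For SNORD17 in SNX5, a sorting nexin, the ratio was 1.87 and that of SNX5 1.04. Of these, SNORA67 was named after its values were seen. Counting all annotated hosts, 22 of the 46 snoRNAs lay wholly inside an exon of at least 1 host transcript. There, reads of host and snoRNA cannot be told apart. The other 24 lay wholly inside no host exon, and partial overlap with exons was not examined.

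**Figure D4:**
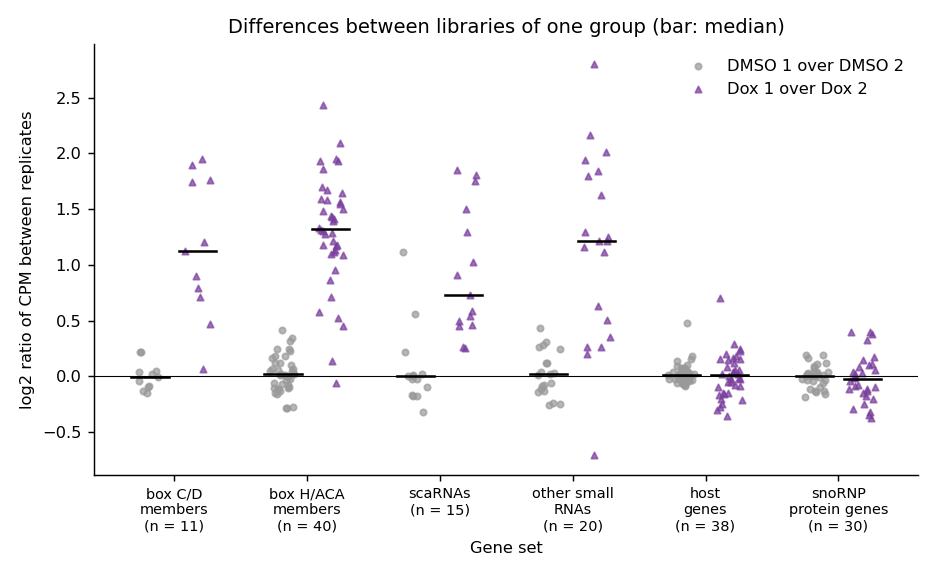
Each point is 1 RNA or gene, and the vertical axis gives the log2 ratio of its CPM between DMSO 1 and DMSO 2 (grey circles) or between Dox 1 and Dox 2 (purple triangles), with a bar at the median of each set. Ratios of the Dox pair lie above 0 for 50 of the 51 snoRNAs and centre on 0 for host genes and snoRNP protein genes.

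Of the 38 host genes, 4 were higher and 5 lower in Dox (edgeR adjusted p under 0.05), or 23.7% against 30.3% of all genes tested. The higher ones were ATP6V0E1, MBD2, EP400 and PRRC2A. The lower ones were SLC25A3, CCNB1IP1, RCC1, IARS and SNHG1. Apart from RCC1 and SLC25A3, these hosts were named for passing the test. The number called changed with the library left out. Both Dox libraries lay below both DMSO libraries in 20 of the 38 hosts and above in 10 (34.5% and 34.6% of all genes tested). The median log2 fold change of the 38 was -0.085 with all libraries, -0.12 without DMSO 1 and -0.10 without DMSO 2. It was -0.11 without Dox 1 and -0.096 without Dox 2. With library totals alone the balance of calls turned to 7 higher and 4 lower, beside 3027 higher and 1668 lower of all 16749 genes tested. RCC1, the exchange factor of the GTPase Ran, was the host used for SNORA73A and SNORA73B. These also lie in SNHG3, whose values were not examined. RCC1 fell by 0.58 on the log2 scale (SE 0.10) with an edgeR adjusted p of 0.00735, from 25.5 and 26.3 CPM to 16.1 and 18.5. SLC25A3, the mitochondrial phosphate carrier and host of SNORA53, fell by 0.29 (SE 0.08) on the log2 scale with an edgeR adjusted p of 0.0322, from 309 and 314 CPM to 246 and 264. Called hosts held 10 of the snoRNAs, and 0 of these 10 were themselves called. As 2 of all 51 snoRNAs (3.92%) were called, this count cannot show whether snoRNAs follow their hosts. Over 46 pairs, in which snoRNAs share hosts and all share the libraries, Spearman's rho between the log2 fold changes of snoRNA and host was 0.46 and Pearson's r 0.44, given as a description.

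**Figure D5:**
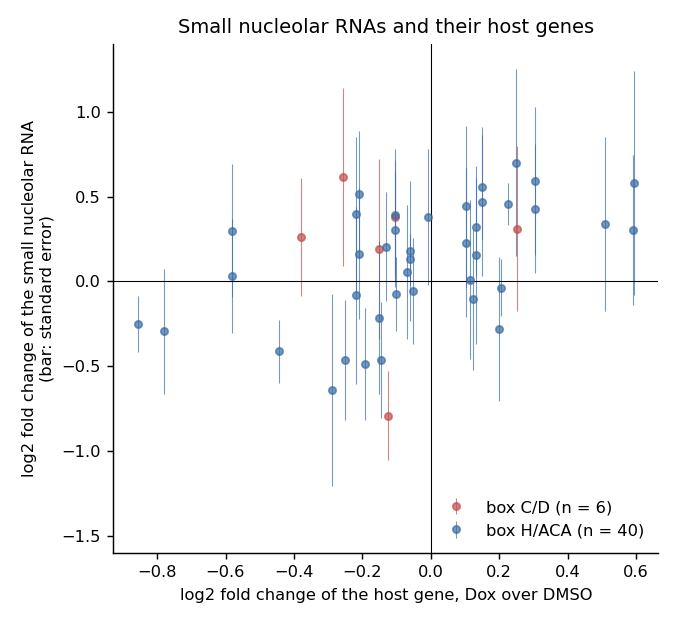
Each point is 1 of 46 snoRNAs with an annotated host, with the host's log2 fold change, Dox over DMSO, on the horizontal axis and its own on the vertical axis, where bars are standard errors. The spread is wide, with a Spearman's rho of 0.46, and snoRNAs in the 9 called hosts lie on both sides of 0.

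Genes of the proteins that bind, assemble and trim snoRNAs were mostly not called. Of 30 such genes tested, 1 was higher and 2 lower (edgeR adjusted p under 0.05, beside 30.3% of all genes). With library totals alone the balance turned to 3 higher and 1 lower, beside 3027 higher and 1668 lower of all 16749 genes tested. DESeq2 gave 0 higher and 2 lower. In 19 of the 30 both Dox libraries lay below both DMSO libraries and in 6 above (34.5% and 34.6% of all genes tested). NAF1, an assembly factor of box H/ACA particles, rose by 0.58 on the log2 scale (SE 0.17), with an edgeR adjusted p of 0.0423. PIH1D1, of the assembly complex R2TP, fell by 0.53 (SE 0.13), with an edgeR adjusted p of 0.0237. PARN, an exonuclease that trims the ends of H/ACA RNAs, fell by 0.37 (SE 0.08), with an edgeR adjusted p of 0.0196. These 3 were named for passing the test, and all 3 calls were lost without DMSO 1 and without DMSO 2. The median log2 fold change of the 30 was -0.12 without DMSO 1 and -0.095 without DMSO 2. It was -0.11 without Dox 1 and -0.099 without Dox 2.

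None of the core proteins was called with all 4 libraries. Some were called when a Dox library was left out. Without Dox 1 the median log2 fold change was 0.0095 over the 4 box C/D and -0.099 over the 4 box H/ACA core genes. Without Dox 2 these medians were -0.049 and -0.12. The box C/D core genes FBL (fibrillarin), NOP56, NOP58 and SNU13 had log2 fold changes of -0.13 (SE 0.10), -0.12 (SE 0.09), 0.07 (SE 0.08) and 0.01 (SE 0.08), with 0 of 4 at an unadjusted p under 0.05. The box H/ACA core genes DKC1 (dyskerin), NHP2, NOP10 and GAR1 had -0.13 (SE 0.09), -0.22 (SE 0.12), -0.07 (SE 0.07) and 0.22 (SE 0.18), also with 0 of 4 at an unadjusted p under 0.05. Of 12 genes of RNA polymerase I transcription, 0 were called by edgeR (30.3% of all genes tested) and 2 had an unadjusted p under 0.05 (42.6%). Some of the 12 were called when a Dox library was left out. Their median log2 fold change was -0.13 without Dox 1 and -0.027 without Dox 2. Of 15 genes of the nucleolar scaffold and early processing, edgeR called 2 higher and 0 lower. Over all genes tested, 16.5% were called higher and 13.8% lower. The 2 were UTP3, by 0.36 (SE 0.11), and UTP4, by 0.74 (SE 0.13) on the log2 scale, with edgeR adjusted p-values of 0.0450 and 0.00874. Both were named for passing the test and are factors of the small-subunit processome, to which U3 also belongs. UTP3 and UTP4 were not both called when either DMSO library was left out. The median log2 fold change of the 15 was -0.028 without Dox 1 and -0.0094 without Dox 2.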

How the data were processed

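The labels name total RNA of BJ fibroblasts in 2 libraries per group, and groups were taken from the sample titles. Per the submitters' processing notes, the tools were cutadapt, STAR, Picard and RSEM and the build was hg38. Tool versions, annotation release and library size selection were not given in the sources used here. The deposited expected counts, named so per the file headers, are the authors' estimates of reads per gene and need not be whole. They were rounded here. The deposited length and effective length, per the file headers, are averages over a gene's transcripts.

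All genes of the tables entered the filter. Genes were kept by filterByExpr of edgeR 4.0.16 (minimum count 10, minimum total 15), scaled by TMM and tested by quasi-likelihood (glmQLFit, glmQLFTest) for group alone, and p-values were adjusted by Benjamini-Hochberg over all 16749 genes kept (threshold 0.05). A standard error is the size of the log2 fold change over the square root of F. The work ran in R 4.3.3 with DESeq2 1.42.0 and in Python 3.11.15, and the scripts were tested on simulated data. Identifiers were matched to GENCODE 29 by Ensembl identifier for 99.5% of genes, which gave locations, hosts and sequences.

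The snoRNAs, the gene lists and the tests were chosen with earlier results of these data known. Named snoRNAs were the 5 with the highest mean CPM in each class, the 5 largest rises and falls with an adjusted p under 0.05 in each class, those of pre-rRNA processing, and the 3 just above and 3 just below a mean count of 100. Core proteins and hosts of named snoRNAs could also be named. Alternatives were DESeq2, library totals or TMM factors of protein-coding genes alone, no filter beyond 1 count, the replicate number as a block, mean counts of 50 or 200 as the level, and leaving out each library.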

Additional observations from a re-analysis of the deposited data

How the results depend on the processing

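The 51 snoRNAs had from 59 (SNORA21 in Dox 2) to 1146324 (SNORD3A in Dox 1) counts a library. There were 2 libraries per group, and the Dox pair stood apart. The part of counting error in the standard errors was not tested. Scaling by library totals or by TMM factors of protein-coding genes alone changed no direction and no call of the 17 named snoRNAs, although with library totals 64.5% of all calls were higher in place of 54.5%. With DESeq2, the calls were 1 of the 51 snoRNAs and 0 of 40 box H/ACA, beside 2060 higher and 1833 lower over all genes. With no filter beyond 1 count they were 7 of 51, 4 of 11 box C/D, 3 of 40 box H/ACA and 8 of 30 protein genes. Of all 31057 genes in that fit, 3351 were called higher and 3058 lower. The deviations of same-numbered libraries correlated at 0.0419 over genes. Whether libraries of the same number were paired was not tested. With the replicate block, the calls were 6 of 51 (3 higher, 3 lower), 3 box C/D, 3 box H/ACA and 6 protein genes. Of all 16749 genes, 2972 were called higher and 2511 lower with the block. SNORD17 (edgeR adjusted p 0.00192), SNORD3B-2 (0.0180) and SNORA53 (0.0349) were called with the block. With a mean count of at least 50 as the level, 2 box H/ACA snoRNAs were called. The median log2 CPM in place of the sum gave -0.45 for the class ratio. SNORA73A reversed to -0.0020 with no filter and to -0.084 with the block, and SNORD13 reversed to -0.068 with the block. The cause was not tested. Leaving out each library in turn gave from 1 to 44 calls among the 51, 1 to 10 box C/D, 0 to 34 box H/ACA, 0 to 18 protein genes and 2 to 30 host genes, and a class ratio from -0.37 to 0.17. In the same fits the log2 fold change ran from -0.29 to 0.51 for SNORD3A, -0.69 to 0.50 for SNORA73A, -0.58 to 0.83 for SNORA73B, -0.66 to 0.99 for SNORA63 and -0.42 to 0.78 for SNORA48. It ran from -0.36 to 0.86 for SNORD10, -0.84 to 0.94 for SNORD97, -2.05 to 0.057 for SNORA53, -0.999 to 0.75 for SNORD13 and -0.13 to 0.34 for SNORD3C, and from -0.19 to 0.69 for SNORA10, -1.22 to 0.38 for SNORA21 and -0.41 to 0.89 for SNORA22.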

Other observations

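Of the 56 tested snoRNAs under a mean count of 100, 1 was called, against 30.3% of all genes tested. It was SNORA61, a box H/ACA snoRNA just below the level. Its counts were 125 and 128 in DMSO and 55 and 74 in Dox, both below DMSO, and its log2 fold change was -0.97 (SE 0.19) with an edgeR adjusted p of 0.0127. The tested snoRNAs under the level resembled the 51 in the Dox pair. In 40 of 56, Dox 1 lay above and Dox 2 below both DMSO libraries (6.11% of all genes tested). The median ratio of Dox 1 to Dox 2 was 3.09, from 0.794 to 13.5. At these low counts the ratio of DMSO 1 to DMSO 2 also ranged widely, from 0.424 to 1.98.

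The small Cajal body RNAs (scaRNAs), relatives of snoRNAs that guide changes in spliceosomal RNAs, had 15 entries tested, of which 5 fell and 0 rose (edgeR adjusted p under 0.05, against 13.8% lower and 16.5% higher of all genes tested). In 9 of the 15 both Dox libraries lay below both DMSO libraries (34.5% of all genes tested) and in 6 the Dox libraries lay on either side. SCARNA2 measured 146 and 146 CPM in DMSO and 111 and 92.8 in Dox, a log2 fold change of -0.52 (SE 0.10) with an edgeR adjusted p of 0.0107. SCARNA12 measured 80.0 and 79.5 CPM in DMSO and 54.4 and 45.3 in Dox, with -0.68 (SE 0.10) and an edgeR adjusted p of 0.00451. Dox 1 was above Dox 2 in all 15, by a median of 1.66-fold. These 2 scaRNAs were chosen after their values were seen. Over the scaRNAs tested in each fit, the median log2 fold change was -0.99 without Dox 1 and -0.17 without Dox 2. It was -0.43 without DMSO 1 and -0.36 without DMSO 2.

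Of 20 other small noncoding RNAs tested, 6 fell and 0 rose, against 13.8% lower and 16.5% higher of all genes tested, and Dox 1 was a median 2.33-fold above Dox 2. RN7SK, a longer RNA that holds the elongation factor P-TEFb, had a ratio of 1.20, and RNY3, a short Y RNA, one of 4.47. RMRP, the RNA of RNase MRP, had 2 entries, whose single values are uncertain. The larger, with a mean count of 244602, had a ratio of 1.20 and was lower in Dox, and the smaller, with a mean count of 31461, had a ratio of 0.613. These 3 were named after their values were seen. Over the other small RNAs tested in each fit, the median log2 fold change was -0.94 without Dox 1 and 0.14 without Dox 2.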
